A study of Bos taurus with 6 samples.

Results

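The miR-130, miR-301 and miR-454 family of miRNAs was examined in extracellular vesicles (EVs) released by cultured bovine granulosa cells, the somatic cells that surround the oocyte in the ovarian follicle. The members were chosen by name. All 5 names, bta-miR-130a, bta-miR-130b, bta-miR-301a, bta-miR-301b and bta-miR-454, were listed among the 512 miRNAs of every library, and no other arm of these hairpins was listed. Cells from healthy follicles of 3 to 6 mm, taken from slaughterhouse ovaries, were first grown at 37 °C in medium with exosome-depleted foetal serum. They were then either kept at 37 °C (control-EVs) or moved to 42 °C (heat stress, HS-EVs) for 24 h, after which vesicles were precipitated from the spent medium with ExoQuick-TC and their small RNA was sequenced. Each group had 3 libraries, numbered 1 to 3, described as biological replicates. Breed, age and number of animals behind a library were not given in the sources used here.

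A miRNA guides Argonaute to messenger RNAs that pair with its seed, the stretch close to the 5′ end, and the bound message is silenced. Members of this family carry the same seed, so that they are expected to share most targets, among them transcripts of TGF-β/BMP signalling. By the gene order that RefSeq gives for assembly ARS-UCD2.0, not the UMD3.1 build of the study, the family falls into 3 places. MIR454 and MIR301A follow each other, with SKA2 listed just before and PRR11 just after, MIR130B and MIR301B follow each other ahead of SDF2L1, and MIR130A stands on its own before YPEL4. All 5 names matched 1 RefSeq gene each.

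The values were read counts that the authors had normalized with TMM, the trimmed mean of M-values. They were whole multiples of a smallest step, which was taken as 1 read. By this count libraries held 274434 to 2360980 reads, in each case more than the study lists as mapped to annotated miRNAs. Why they differ was not tested, and all reads given here are recovered in this way. Of these reads bta-miR-1246 alone took 59.9% to 98.6%, which left 34141 to 235634 reads for all other miRNAs. The fewest were left in HS-EVs replicate 1, where 1 read was worth 4.11 normalized counts against 0.697 to 1.98 in the other 5 libraries. Intervals below cover counting error only, and 3 reads were taken as the floor that a count of 0 allows. Of 8 granulosa cell miRNAs, all were listed, with bta-miR-202 at 1015 to 2087 normalized counts, while bta-miR-212 and bta-miR-383 had 1 and 2 reads in all.

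Within the family, bta-miR-130a made up most of what was sequenced. The family had 1296 reads over the 6 libraries, of which 84.9% belonged to bta-miR-130a, 10.4% to bta-miR-130b, 2.62% to bta-miR-454, 2.01% to bta-miR-301a and 0.0772% to bta-miR-301b. By mean normalized count they ranked 63, 148, 202, 230 and 469 of 512. In control-EVs alone, bta-miR-301a had 15 reads and bta-miR-454 had 13, and in HS-EVs 11 and 21. A read covers a whole mature miRNA, and these miRNAs are of nearly equal length, so counts were compared without a length correction.

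The miRNA bta-miR-130a, known from endothelial and blood-forming cells, had normalized counts of 270, 310 and 213 in replicates 1 to 3 of control-EVs and of 209.5, 280.5 and 155 in those of HS-EVs. Between 51 and 444 reads lay behind each value, the best support in the family. The groups overlapped.

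Its close relative bta-miR-130b, known as a repressor of the fat cell regulator PPARG, had 20.2, 37.0 and 41.5 normalized counts in control-EVs and 16.4, 29.7 and 31.0 in HS-EVs, from 4 to 53 reads. Replicate 1 was the lowest library in both groups, and the groups overlapped. Its genomic neighbour bta-miR-301b was practically missing. A single read in HS-EVs replicate 2 was its only one, and the floor in the other libraries lay between 2.09 and 12.3 normalized counts, so that no fold change could be given.

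The second genomic pair was sparse but present. For bta-miR-454, control-EVs gave 7.34, 5.58 and 1.98 normalized counts and HS-EVs 16.4, 9.90 and 13.0. These rest on 4, 8 and 1 reads in control-EVs and on 4, 9 and 8 reads in HS-EVs. The groups did not overlap, but the exact Poisson intervals (95%) of single libraries were wide, from 2.0 to 18.8 normalized counts in control-EVs replicate 1 and from 4.53 to 18.8 in HS-EVs replicate 2. For bta-miR-301a, studied in tumours as an activator of NF-κB signalling, the values were 0, 6.97 and 9.88 in control-EVs and 4.11, 7.70 and 4.89 in HS-EVs, from 0, 10 and 5 and from 1, 7 and 3 reads. The HS-EVs values lay inside the control-EVs range. In such bulk libraries, fewer vesicles of a kind and less of a miRNA per vesicle cannot be told apart. A criterion of 10 normalized counts in at least 2 of 3 libraries was met by bta-miR-130a and bta-miR-130b in both groups, by bta-miR-454 in HS-EVs alone, and by bta-miR-301a and bta-miR-301b in neither.

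**Figure D1:**
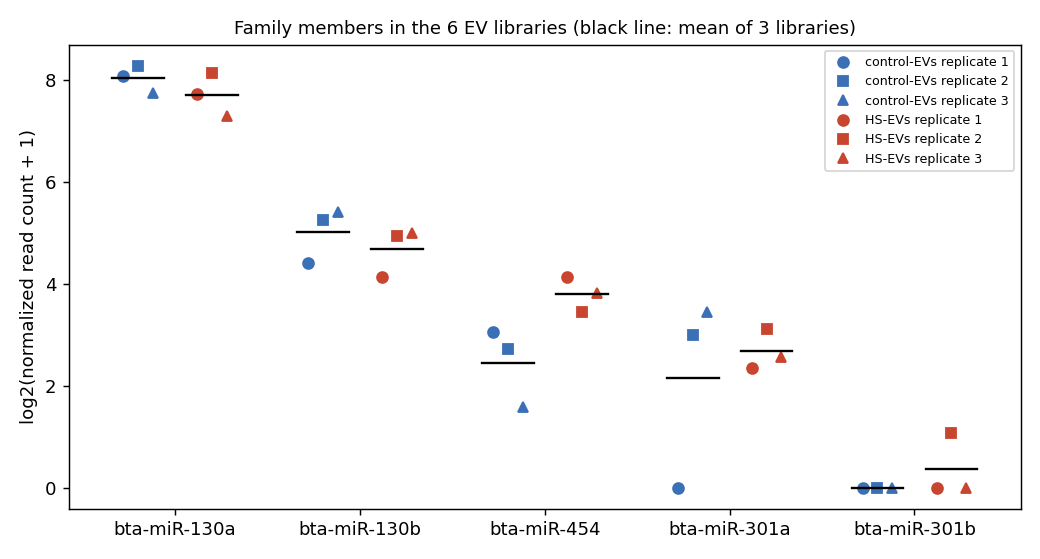
Level of each member, as log2(normalized read count + 1), in the 3 control-EVs libraries (blue) and the 3 HS-EVs libraries (red), with the mean of each group as a black line. The groups of bta-miR-130a, bta-miR-130b and bta-miR-301a overlap, those of bta-miR-454 do not, and bta-miR-301b is above 0 in 1 library.

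On the log2(normalized count + 1) scale, the mean level over the 6 libraries was 7.87 for bta-miR-130a, 4.85 for bta-miR-130b, 3.12 for bta-miR-454, 2.41 for bta-miR-301a and 0.18 for bta-miR-301b. Neighbours in this order were compared within libraries by exact sign flips, two-sided, with adjustment over the 4 comparisons. bta-miR-130a exceeded bta-miR-130b by 3.02 ± 0.60 (SD, n = 6 libraries), in 6 of 6 libraries (exact p = 0.03125, the smallest that 6 libraries allow, adjusted 0.0833). bta-miR-130b was higher than bta-miR-454 by 1.73 ± 1.31 (SD, n = 6; exact p = 0.0625, adjusted 0.0833), in 5 libraries, with equal counts of 4 reads in HS-EVs replicate 1. bta-miR-454 and bta-miR-301a differed by 0.71 ± 1.72 (SD, n = 6; exact p = 0.406, adjusted 0.406), less than the spread between libraries. The fourth comparison, with bta-miR-301b, is not read as a test, since that miRNA had a read in 1 library only and the size of the difference would be set by the pseudocount.

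The comparison of HS-EVs with control-EVs asks which EV miRNAs differ after heat stress, and here whether the rest of the family goes with bta-miR-454. Of the 4 members with a fold change, bta-miR-454 had the only one above 1 on the log2 scale, and those of bta-miR-130a and bta-miR-130b were negative. None of them passed the test. With limma on log2(normalized count + 1), adjusted over all 512 miRNAs, the log2 fold change of bta-miR-454 was 1.34, with a standard error of 0.52 and an adjusted p of 0.870. For bta-miR-130a it was -0.32 (standard error 0.45, adjusted p = 0.890) and for bta-miR-130b -0.33 (standard error 0.49, adjusted p = 0.892). For bta-miR-301a it was 0.53 (standard error 0.82, adjusted p = 0.892), yet its mean normalized counts were 5.62 ± 5.08 and 5.57 ± 1.89 (SD, n = 3 each), control-EVs first. Without control-EVs replicate 1, where it had no read, its log2 fold change was -0.54. Without control-EVs replicate 3, the log2 fold change of bta-miR-301a was 1.18 and that of bta-miR-454 0.90. With all libraries, the median over these 4 members was 0.10, and that over all 512 miRNAs 0.01.

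The criterion that the study stated for an enriched EV miRNA was an adjusted p that did not exceed 0.3 and a log2 fold change of at least 1 in size. By this criterion limma called 0 of the 5 members and 0% of the 512 miRNAs. The study, which used edgeR, reported 5 miRNAs as enriched in HS-EVs, bta-miR-1246 among them and no member of this family. At an unadjusted p of 0.05 or less, limma gave 25 of the 512 miRNAs, and 14 of them (2.73% of 512) were higher in HS-EVs, bta-miR-454 being the only member. On recovered reads and by the study's criterion, 3 miRNAs were called by edgeR's quasi-likelihood test and 1 by DESeq2, none of them a member. The only member whose groups did not overlap was again bta-miR-454. Over all 512 miRNAs, 3.71% were higher in HS-EVs without overlap and 2.73% higher in control-EVs. bta-miR-454 belongs to a list that the study drew up from these same libraries. Its entry there does not meet that criterion, so being listed is not a call, and its difference is given as a description.

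The scaling bears on each of these values. When reads were scaled by all reads on miRNAs, bta-miR-1246 included, the log2 fold changes of the 512 miRNAs had a median of -0.79. The log2 fold change of bta-miR-454 was then 0.11, its groups overlapped, and those of bta-miR-301a, bta-miR-130a and bta-miR-130b were -0.45, -1.83 and -1.66. Relative to the median, bta-miR-454 stood 0.90 higher, bta-miR-301a 0.34 higher, and bta-miR-130a and bta-miR-130b stood at -1.04 and -0.87. On the deposited values the same distances were 1.34, 0.52, -0.33 and -0.34. The added 1 damps the shift of miRNAs with few reads, so a distance to the median depends on level and scaling. With bta-miR-1246 left out of the library totals, bta-miR-454 had 5.22, 3.40 and 1.36 reads per 100000 in control-EVs and 11.7, 7.29 and 9.23 in HS-EVs, again without overlap, and its log2 fold change was 1.44.

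**Figure D2:**
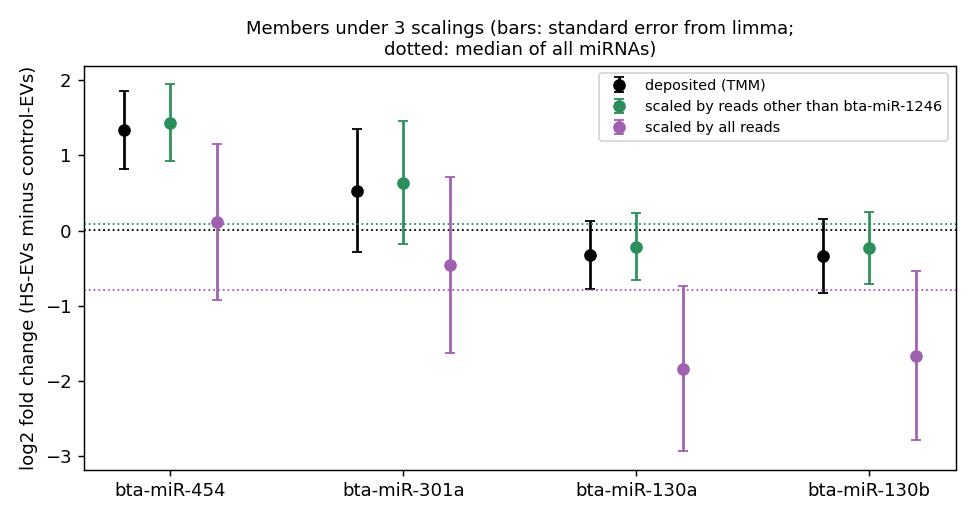
Log2 fold change (HS-EVs minus control-EVs) of 4 members with its standard error from limma, on the deposited values (black), on reads scaled by reads other than bta-miR-1246 (green) and on reads scaled by all reads (purple), with the median of all 512 miRNAs dotted. bta-miR-454 stands above the median and above the other 3 members under each scaling, at 1.34, 1.44 and 0.11.

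Ratios within a library do not depend on its scaling. Per 100 reads of bta-miR-130a there were 2.72, 1.80 and 0.926 reads of bta-miR-454 in control-EVs and 7.84, 3.53 and 8.42 in HS-EVs. Every HS-EVs library thus held more bta-miR-454 per bta-miR-130a than every control-EVs library. The closest, HS-EVs replicate 2 and control-EVs replicate 1, rest on 9 and 4 reads of bta-miR-454, so counting error is large. How many other miRNAs would part the groups in this way was not counted. Against bta-miR-130b, the counts of bta-miR-454 were 36.4, 15.1 and 4.76 per 100 reads in control-EVs and 100, 33.3 and 42.1 in HS-EVs, where control-EVs replicate 1 exceeded HS-EVs replicate 2.

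These relations were also compared on the log2(normalized count + 1) scale, where the added 1 makes differences between members depend on the scaling and on the pseudocount. The level of bta-miR-454 minus that of bta-miR-130a averaged -5.58 ± 0.58 in control-EVs and -3.92 ± 0.67 in HS-EVs (SD, n = 3 each), which is 1.67 apart (two-sided exact permutation test, p = 0.1, adjusted over 3 comparisons 0.3). No smaller p is possible in this permutation test with 3 libraries a group. Against bta-miR-130b it was -2.57 ± 1.25 and -0.89 ± 0.79 (SD, n = 3 each), a difference of 1.68 (two-sided exact permutation test, p = 0.2, adjusted 0.3). Against its genomic neighbour bta-miR-301a it was 0.30 ± 2.52 and 1.12 ± 0.73 (SD, n = 3 each), a difference of 0.81 (two-sided exact permutation test, p = 0.6, adjusted 0.6), well within the spread between libraries. In same-numbered libraries, the level relative to bta-miR-130a was higher in HS-EVs by 1.43, 0.87 and 2.70, and that relative to bta-miR-130b by 1.34, 1.03 and 2.65. Relative to bta-miR-301a the 3 values were -1.29, 0.60 and 3.12. By themselves, bta-miR-130a and bta-miR-130b were each lower in HS-EVs in 3 of 3 same-numbered comparisons, as were 44 of all 512 miRNAs. Differences to these members therefore hold their own fall as well as the rise of bta-miR-454. Without control-EVs replicate 3, where bta-miR-454 had 1 read, the difference against bta-miR-130b was 1.04 and that against bta-miR-301a -0.28. Scaled by all reads, the differences between groups were 1.95 against bta-miR-130a, 1.78 against bta-miR-130b and 0.57 against bta-miR-301a. These differences are not independent of the choice of bta-miR-454.

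**Figure D3:**
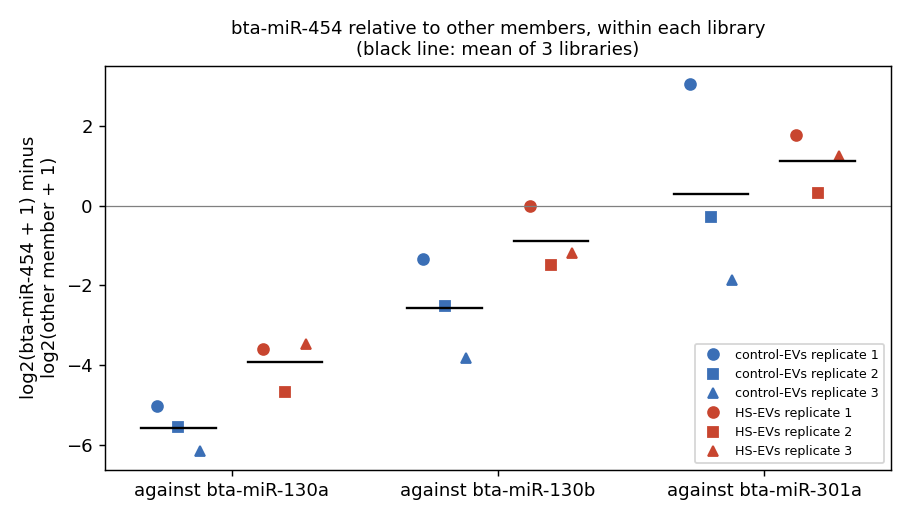
Level of bta-miR-454 minus that of another member within each library, both as log2(normalized read count + 1), for control-EVs (blue) and HS-EVs (red), with group means as black lines. Against bta-miR-130a the groups are apart, with means of -5.58 in control-EVs and -3.92 in HS-EVs, and against bta-miR-130b and bta-miR-301a the groups overlap.

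The family's make-up was also followed as shares of its reads. The share of bta-miR-454 in the family's reads was 2.47%, 1.55% and 0.741% in control-EVs (mean 1.59% ± 0.865, SD, n = 3) and 6.67%, 3.01% and 6.40% in HS-EVs (mean 5.36% ± 2.04, SD, n = 3). No HS-EVs library fell into the control-EVs range, but Wilson intervals (95%) of single libraries did overlap, with 0.964% to 6.18% for control-EVs replicate 1 and 1.59% to 5.62% for HS-EVs replicate 2. The share of bta-miR-130a was 85.7% ± 5.39 in control-EVs and 82.1% ± 5.28 in HS-EVs (SD, n = 3 each). For bta-miR-130b it was 10.9% ± 4.41 and 10.3% ± 4.41 (SD, n = 3 each), and for bta-miR-301a 1.88% ± 1.85 and 2.14% ± 0.407 (SD, n = 3 each).

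**Figure D4:**
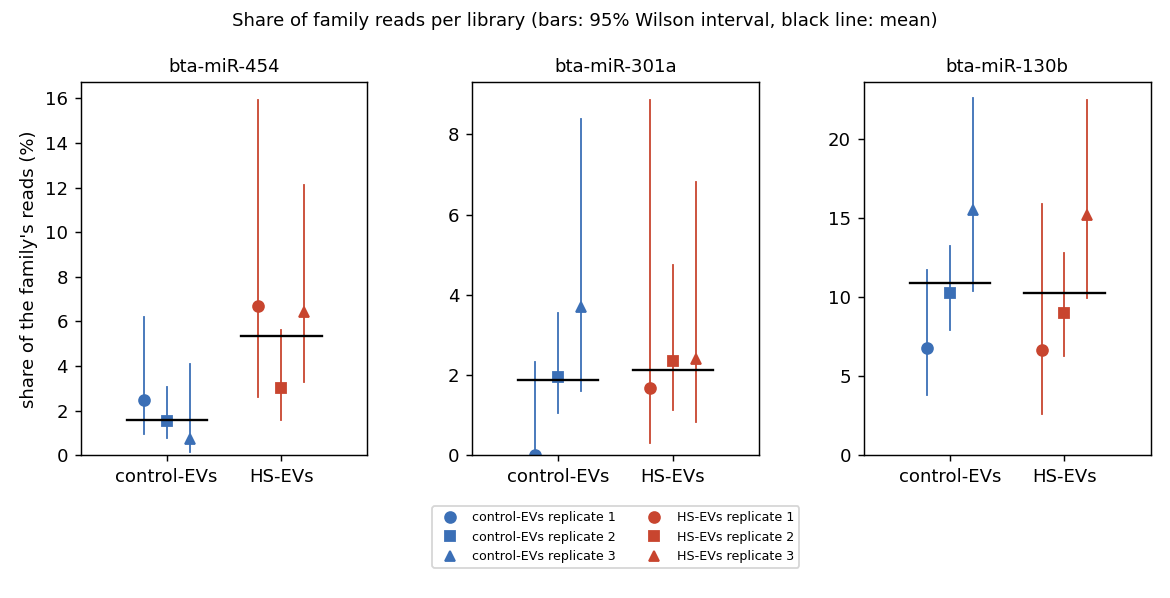
Share of bta-miR-454, bta-miR-301a and bta-miR-130b in the reads of the 5 members, in percent for each library, with 95% Wilson intervals as bars and group means as black lines. For bta-miR-454 the means are 1.59% in control-EVs and 5.36% in HS-EVs, and for the other members the groups overlap.

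Summed over its members, the family held 297, 359 and 267 normalized counts in control-EVs (308 ± 47.0, SD, n = 3) and 247, 329 and 204 in HS-EVs (260 ± 63.6, SD, n = 3). It took 0.211%, 0.219% and 0.184% of the reads other than bta-miR-1246 in control-EVs, and 0.176%, 0.242% and 0.144% in HS-EVs. The highest and the lowest of these shares were both in HS-EVs, and bta-miR-130a made up most of each sum.

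Some other miRNAs have seeds that overlap this seed in a shifted register. All 5 of a chosen list, bta-miR-19a and bta-miR-19b, known from the oncogenic miR-17/92 cluster, and bta-miR-148a, bta-miR-148b and bta-miR-152, were listed. None was called by limma and in none were the groups apart, with log2 fold changes between -0.83 and 0.13 and a median of -0.39. The most abundant, bta-miR-148a, had 1435, 3812 and 3181 normalized counts in control-EVs and 1409, 1690 and 1299 in HS-EVs (adjusted p = 0.873 from limma), with 2 of 3 control-EVs libraries above all others.

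The miRNAs most like bta-miR-454 were taken by Pearson correlation of log2(normalized count + 1) over the 6 libraries, among 180 miRNAs with at least 60 reads in all. They were bta-miR-181a (r = 0.96), bta-miR-98 (r = 0.94), bta-miR-23b-3p (r = 0.82), bta-miR-15b (r = 0.81) and bta-miR-339a (r = 0.80). The values share the scaling of each library and, in part, the difference between groups, so the r values are a description. Since the groups of bta-miR-454 do not overlap, a gap between groups is partly built into this choice and is not a separate finding. Of all 512 miRNAs, 19 were higher in HS-EVs without overlap. Both bta-miR-181a and bta-miR-23b-3p are also on the list that the study drew up from these same libraries. The groups of bta-miR-181a and bta-miR-23b-3p did not overlap, with means of 7.82 and 34.4 normalized counts in control-EVs and 23.1 and 72.2 in HS-EVs (log2 fold changes 1.68 and 1.12, adjusted p = 0.785 and 0.873 from limma). Those of the other three did, among them bta-miR-98, which had 67.9, 65.5 and 43.5 normalized counts in control-EVs and 78.1, 64.9 and 81.5 in HS-EVs. On the same measure, bta-miR-130a ranked 124 of 180 (r = -0.27) and bta-miR-130b 168 (r = -0.71), while bta-miR-301a and bta-miR-301b had too few reads to be ranked.

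Markers of other sources were present in both groups. The summed level of 6 blood cell miRNAs was 812 to 1601 normalized counts in control-EVs and 563 to 1093 in HS-EVs, that of the endothelial bta-miR-126 arms 129 to 764 and 212 to 859, and liver bta-miR-122 had 12232 to 25400 and 7524 to 13633. Most of the blood cell sum was bta-miR-486, at means of 787 in control-EVs and 478 in HS-EVs, while bta-miR-150 of the same list lay higher in HS-EVs without overlap (means 24.4 and 48.0, log2 fold change 0.91, adjusted p = 0.873 from limma). Granulosa cell miRNAs summed to 9864 to 17559 in control-EVs and 9479 to 16978 in HS-EVs. Most of this sum was bta-miR-21-5p, at means of 10154 in control-EVs and 11099 in HS-EVs, while bta-miR-202 had means of 1839 and 1525. No list had a member at 0 in all libraries, and 0 of these 17 miRNAs was called by limma. Their part in the values of the family was not tested.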

How the data were processed

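Small RNA of 6 EV libraries was analysed, 3 control-EVs and 3 HS-EVs, grouped by the deposited titles. Per the methods, the authors trimmed reads with Cutadapt (1.11), collapsed reads of equal UMI, mapped the rest with Bowtie2 (2.2.2) to the bovine genome (UMD3.1) and then to bovine miRBase entries, and normalized by TMM in edgeR. Related members could share reads in this counting. The authors deposited normalized counts, a signal that is never negative, not raw counts. The smallest non-zero value of a library was taken as 1 read, of which 100% of its values were multiples (tolerance 0.001).

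All 512 miRNAs were fitted with limma (3.58.1, R 4.3.3) on log2(normalized count + 1), unfiltered, without a block, with Benjamini-Hochberg adjustment. A check on simulated counts with large changes was judged on miRNAs of high level, so it does not bear on the members with few reads. edgeR's quasi-likelihood test (4.0.16) and DESeq2 (1.42.0) on recovered reads, with the authors' scaling, were alternatives, beside other pseudocounts, scalings, a filter, limma's trend, a replicate block and leaving out each library. Other scalings were brought to the mean worth of a read in the deposited values before adding 1. Ratios of bta-miR-454 without a pseudocount were added after seeing the data. For single values, exact permutation tests used the 10 ways to split the libraries 3 to 3, or exact sign flips. bta-miR-301b (1 read) was in the fit and in the counts of calls, but its fold change is not reported. Libraries differed beyond sampling noise in all 15 pairs (chi-square per degree of freedom 18.8 to 2008). This was computed on all reads, bta-miR-1246 included, and does not measure the spread of the family.

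The miRNAs named are the 5 members, the list with overlapping seeds, the 5 most like bta-miR-454, the markers and bta-miR-1246. Members and lists were chosen with earlier results of these data known. Mature sequences were not used here.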

Additional observations from a re-analysis of the deposited data

How the results depend on the processing

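The number of miRNAs past the study's criterion was 0 in limma's test, 1 with a pseudocount of 0.5, 2 with limma's trend, 3 with edgeR's quasi-likelihood test, 1 with DESeq2, and between 0 and 4 with each library left out; no member was among them under any of these. bta-miR-454 kept a positive log2 fold change, from 0.11 (scaled by all reads) to 1.65, and bta-miR-130a and bta-miR-130b a negative one, from -1.83 to -0.11 and from -1.66 to -0.05. The unadjusted p of bta-miR-454 lay between 0.0138 and 0.914 and its adjusted p between 0.517 and 0.998. The log2 fold change of bta-miR-301a turned to -0.45 when scaled by all reads and ranged from -0.54 to 1.18 with each library left out. It could not be fitted after the filter on low values, which removed it. bta-miR-454 minus bta-miR-301a ranged from -0.28 to 2.19 with each library left out, bta-miR-454 minus bta-miR-130a from 1.37 to 2.05, and bta-miR-454 minus bta-miR-130b from 1.04 to 2.29. Without a pseudocount, the differences to bta-miR-130a and bta-miR-130b were 1.89 and 1.92. Scaled by all reads, 0 members and 25 of all 512 miRNAs had groups apart, against 1 and 33 on the deposited values. With each library left out it was 1 or 2 members and 45 to 106 of the 512; the second member was bta-miR-130b without control-EVs replicate 1 (106 of 512) and bta-miR-130a without HS-EVs replicate 2 (70 of 512). bta-miR-130a exceeded bta-miR-130b by 2.89 to 3.17 with each library left out, where 5 libraries cannot give an exact p under 0.0625. Of 170 alternative values, 151 kept direction and side of the threshold.

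Same-numbered libraries are not stated to share a culture, so the numbers were not taken as pairs. Their deviations correlated by 0.14, 0.14 and 0.08 over all 512 miRNAs. Many of these have few reads, so the correlations do not settle whether such libraries belong together. With the replicate number as a block, bta-miR-454 had a log2 fold change of 1.34 (adjusted p = 0.739 from limma) and 0 miRNAs were called. The exact sign-flip p of its difference to bta-miR-130a within same-numbered libraries was 0.25, the smallest that 3 pairs allow. Counts of 1 to 9 reads limit bta-miR-454, and the single read of bta-miR-301b allows no comparison.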

Other observations

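The proportion of bta-miR-130b to bta-miR-130a varied between libraries of a group more than between the groups. Per 100 reads of bta-miR-130a there were 7.48, 11.9 and 19.4 reads of bta-miR-130b in control-EVs replicates 1, 2 and 3, and 7.84, 10.6 and 20 in HS-EVs replicates 1, 2 and 3. Over the pooled reads it was 12.2 in control-EVs and 12.5 in HS-EVs. Libraries of the same number were thus closer to each other than to the others of their group, a pattern noticed in the data and not tested. For bta-miR-301a the corresponding values were 0, 2.25 and 4.63 in control-EVs and 1.96, 2.75 and 3.16 in HS-EVs.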
